A study of Rattus norvegicus with 8 samples.

Results

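The fibrillar collagen genes of rat Achilles tendon that code for the chains of types I, III, V, XI, XXIV and XXVII are described here, chosen by name. They are Col1a1, Col1a2, Col3a1, Col5a1, Col5a2, Col5a3, Col11a1, Col11a2, Col24a1 and Col27a1, 10 of the 15590 genes in the expression table. Poly(A) RNA sequencing was run on Achilles tendons of young male wild-type Sprague-Dawley rats in 2 groups of 4 libraries. Rats of the group named 0 h p.r. (post-running) were killed directly after 1 h on an inclined treadmill, with a mild electric stimulus to keep them moving, and those of the group named NC (normal control) stayed in their cages. The controls were killed at the hour of a later post-running group, so that hour of killing and running cannot be told apart. The sources do not state that each library came from a rat of its own, and the p-values below measure the spread between these libraries only.

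Fibrillar collagens are secreted as procollagen, a triple helix of 3 chains whose end pieces are cut off before the molecules line up into fibrils. Type I collagen, built from the chains of Col1a1 and Col1a2, is the main load-bearing protein of tendon, and type III, made of Col3a1 chains alone, is best known from young and healing tendon. Types V and XI sit inside the fibril, start its assembly and limit its diameter, while types XXIV and XXVII are minor members known mostly from bone and cartilage.

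Among the 3 chains of type V, Col5a1 and Col5a2 varied together across the libraries and Col5a3 was the single gene of the 10 with an adjusted p under 0.05 (at any fold), so the 250 bases before the start of their genes are shown from RefSeq (GRCr8), 5′ to 3′ on the strand of the gene. Capitals mark 3 motifs, the CCAAT box (CCAAT, or ATTGG on the other strand), the TATA box (TATAAA, gene strand only) and the GC box (GGGCGG, or CCGCCC on the other strand).
Col5a1, GRCr8 chr3:31606630-31606879, plus strand: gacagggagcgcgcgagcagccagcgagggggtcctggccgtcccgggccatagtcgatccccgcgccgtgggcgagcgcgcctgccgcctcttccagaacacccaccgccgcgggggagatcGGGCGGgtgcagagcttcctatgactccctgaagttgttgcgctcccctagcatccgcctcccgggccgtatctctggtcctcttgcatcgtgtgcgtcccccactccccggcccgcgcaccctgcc
Col5a2, GRCr8 chr9:55090152-55090401, minus strand: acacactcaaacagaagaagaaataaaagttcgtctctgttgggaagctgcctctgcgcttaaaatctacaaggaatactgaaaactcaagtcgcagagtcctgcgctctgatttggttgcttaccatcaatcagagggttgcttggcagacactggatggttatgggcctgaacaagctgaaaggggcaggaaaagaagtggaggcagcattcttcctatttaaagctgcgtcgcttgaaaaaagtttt
Col5a3, GRCr8 chr8:27625949-27626198, minus strand: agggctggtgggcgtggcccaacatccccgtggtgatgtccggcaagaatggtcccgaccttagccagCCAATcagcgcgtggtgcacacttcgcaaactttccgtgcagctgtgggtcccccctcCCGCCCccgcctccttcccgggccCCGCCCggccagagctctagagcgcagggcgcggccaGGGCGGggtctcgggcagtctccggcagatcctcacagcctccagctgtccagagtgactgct

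The Col5a1 window held 1 GC box and was 71.6% G and C. The Col5a3 window, at 68.8% G and C, held a CCAAT box and GC boxes on both strands. None of the 3 motifs was found in the Col5a2 window, where G and C made up 44.8% of the bases, against a median of 52% over all windows. Across 27457 RefSeq windows of 250 bases, 34.3% held a CCAAT box, 32.4% a GC box and 8.38% a TATA box. RefSeq windows were matched for 8 of the 10 genes by symbol, and 3 of these 8 held a CCAAT box, 6 a GC box and 1 a TATA box. Col1a1 and Col3a1 were not matched.

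Libraries held 11353937 to 17903262 reads assigned to genes, worked back from the FPKM steps (fragments scaled to gene length and by a factor for each library). The 10 genes together took 0.359% to 1.04% of all FPKM, lowest in NC replicate 2, which also had the highest share of mitochondrial messages (31.1%, against 16.3% in the lowest library). All 6 tendon markers, Scx, Tnmd, Mkx, Thbs4, Kera and Fmod, were present in each library, with summed levels of 1249 to 2195 FPKM in NC and 1081 to 2380 FPKM in 0 h p.r. Summed markers of skeletal muscle spanned 5372 to 8249 FPKM in NC and 1134 to 36781 FPKM in 0 h p.r. Adipocyte and cartilage markers differed between the groups without overlap, and their values stand beside Col5a3 and Col27a1 below.

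The genes differed widely in level per length. Col1a1 was highest, ranked 18 to 56 among all genes of its library, and was above Col3a1 in 8 of 8 libraries. Col3a1 and Col1a2 were neighbours whose order was not fixed, with Col3a1 higher in 6 of 8 libraries. Col5a2, Col5a1, Col5a3 and Col11a1 followed in that order. Col5a2 was above Col5a1 in 8 of 8 libraries, Col5a1 above Col5a3 in 7 of 8, and Col5a3 above Col11a1 in 7 of 8. Col11a1 was above Col11a2 in 8 of 8 libraries, and Col27a1 and Col24a1 were lowest.

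**Figure D1:**
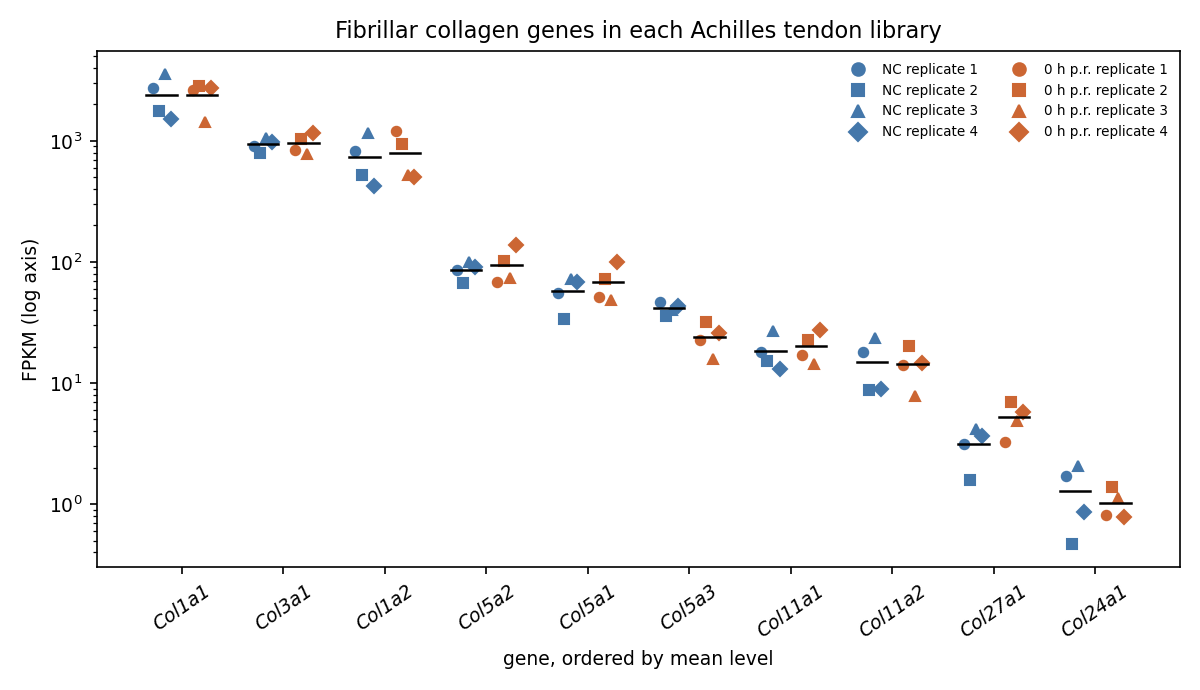
FPKM of the 10 fibrillar collagen genes on a log axis, one point per library (4 NC and 4 0 h p.r.), ordered by mean level, with a line at each group's mean. Groups overlap for each gene except Col5a3, whose 0 h p.r. libraries (15.9 to 31.7 FPKM) all sit under the NC libraries (35.8 to 46.5 FPKM).

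The comparison of 0 h p.r. with NC asked whether collagen messages differed directly after a single bout of running. Both thresholds of the study were kept, a change by a factor of 2 or more and, in limma on log2(FPKM + 0.5) with Benjamini-Hochberg adjustment, an adjusted p under 0.05. Of the 10 genes 0 passed both, and voom on the recovered reads also called 0. Over all 13863 tested genes 2.7% passed both. At an adjusted p under 0.05 and any fold, 1 of the 10 passed, beside 5.72% of all tested genes. At an unadjusted p under 0.05 there were 2, beside 22.6%, and groups did not overlap in 1, beside 15.6%. The median log2 fold change of the members was 0.08, that of all tested genes -0.0014. With single libraries left out the median of the members ranged from -0.038 (without 0 h p.r. replicate 4) to 0.26 (without NC replicate 3).

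The chains of type I did not differ detectably between the groups. Col1a1, which gives the pair of alpha1 chains of type I, read 2713, 1756, 3543 and 1509 FPKM in NC and 2624, 2822, 1440 and 2750 FPKM in 0 h p.r. Low and high libraries occurred in both groups, and the log2 fold change was 0.05 ± 0.37 (SE, n = 4 per group, limma adjusted p = 0.958). Its 95% interval ran from 0.58 to 1.85 of the control level, so that changes within those limits could not be seen with this spread. Col1a2, which gives the alpha2 chain, read 817, 519, 1159 and 423 FPKM in NC against 1195, 943, 523 and 499 FPKM in 0 h p.r. Here too the ranges overlapped, with a log2 fold change of 0.13 ± 0.39 (SE, limma adjusted p = 0.899) and an interval from 0.59 to 2.02 of control.

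Over all 8 libraries Col3a1, the chain of type III, had the most even level of the 10. It read 900, 791, 1061 and 974 FPKM in NC and 846, 1038, 784 and 1169 FPKM in 0 h p.r., all within a range of 1.49-fold. Its log2 fold change was 0.03 ± 0.21 (SE, limma adjusted p = 0.952), with an interval from 0.74 to 1.41 of control. The within-group SD of its log2 level was 0.23, and 39.1% of tested genes had a smaller one. For Col1a1 that SD was 0.52 and for Col1a2 0.64, above 88.1% and 92.4% of tested genes.

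Among the chains of type V, Col5a3 was lower in 0 h p.r., while the groups overlapped for its partners. Col5a3 codes for the alpha3 chain, which joins alpha1 and alpha2 chains in some tissues and is known from adipose tissue and skeletal muscle, among others. It read 46.5, 35.8, 40.4 and 43.0 FPKM in NC and 22.5, 31.7, 15.9 and 26.1 FPKM in 0 h p.r. Each running library was below each control library, with means of 41.4 ± 4.52 and 24.1 ± 6.62 FPKM (SD, n = 4 each). The log2 fold change was -0.81 ± 0.20 (SE), a level 1.75-fold lower, with a limma adjusted p of 0.0484. The exact permutation test gave p = 0.0286, two-sided, the smallest that 4 against 4 libraries allow. Over all tested genes, 2.23% were lower at an adjusted p under 0.05 and any fold (309 genes, and 54 to 502 with single libraries left out). This adjusted p was close to the threshold. It stayed under 0.05 when 0 h p.r. replicate 2 was left out (0.0477) and when 0 h p.r. replicate 4 was (0.0484, limma adjusted p). It was over 0.05 when any of the other 6 libraries was left out, from 0.0615 without NC replicate 2 to 0.135 without NC replicate 1, as it was with a pseudocount of 0.1 (0.0504) and without the filter on low genes (0.0522). With each library scaled to the same FPKM total the groups overlapped (log2 fold change -0.81, adjusted p = 0.269).

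Adipocyte markers were lower in the same group as Col5a3, and the order of the libraries within each group is given as a description only. Their summed level was 2973 to 5960 FPKM in NC and 974 to 2169 FPKM in 0 h p.r., with 0 of 8 markers higher in 0 h p.r. and none at 0 in any library. Adiponectin (Adipoq) spanned 293 to 688 FPKM in NC and 90.0 to 284 FPKM in 0 h p.r. Within 0 h p.r. the adipocyte sum was lowest in replicate 1 and highest in replicate 4, while Col5a3 was lowest in replicate 3 and highest in replicate 2. Within NC both were highest in replicate 1, with Col5a3 lowest in replicate 2 and the adipocyte sum in replicate 4. Of the 10 skeletal muscle markers 7 had a higher mean in 0 h p.r., and those of slow fibres went the other way. Slow troponin T (Tnnt1) spanned 328 to 576 FPKM in NC and 1.52 to 289 FPKM in 0 h p.r. without overlap (log2 fold change -3.54, limma adjusted p = 0.133), and slow myosin (Myh7) gave -3.42 (limma adjusted p = 0.169). Both were lowest in 0 h p.r. replicate 3. The summed muscle markers of that group were lowest in replicate 4 (1134 FPKM) and highest in replicate 1 (36781 FPKM). Actn3 of fast fibres gave 1.76 (limma adjusted p = 0.450). The part of adipose tissue or muscle in the Col5a3 difference was not tested, and in whole tissue fewer cells of a type and less RNA per cell cannot be told apart.

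Col5a1 and Col5a2, the chains of the common type V trimer, overlapped between the groups. Col5a1 read 55.1, 34.1, 72.3 and 68.0 FPKM in NC and 51.3, 72.0, 48.8 and 99.6 FPKM in 0 h p.r. (log2 fold change 0.24 ± 0.29 SE, limma adjusted p = 0.696). Col5a2 read 86.0, 66.8, 99.0 and 90.7 FPKM in NC and 68.6, 101, 73.6 and 137 FPKM in 0 h p.r. (0.11 ± 0.23 SE, limma adjusted p = 0.838). Both genes were lowest in NC replicate 2 and highest in 0 h p.r. replicate 4.

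**Figure D2:**
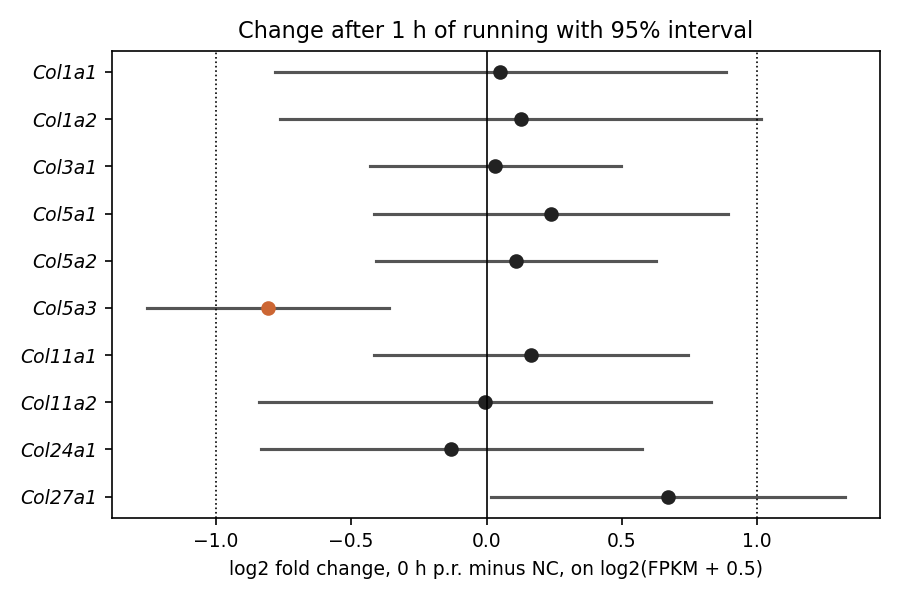
Log2 fold change of each gene in 0 h p.r. against NC from limma on log2(FPKM + 0.5), with bars for the 95% interval (n = 4 per group), dotted lines at a fold of 2 and the gene with an adjusted p under 0.05 in orange. The interval lies wholly under 0 for Col5a3 (-1.25 to -0.36) and just over 0 for Col27a1 (0.017 to 1.32), and spans 0 for the other 8.

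Type XI chains were present at lower levels. Col11a1 read 18.1, 15.1, 26.6 and 12.996 FPKM in NC and 16.9, 22.9, 14.4 and 27.2 FPKM in 0 h p.r. (log2 fold change 0.16 ± 0.26 SE, limma adjusted p = 0.771). Col11a2 read 18.1, 8.74, 23.6 and 8.93 FPKM in NC and 14.0, 20.3, 7.88 and 14.8 FPKM in 0 h p.r. (-0.0051 ± 0.37 SE, limma adjusted p = 0.995). The groups overlapped for both. The third chain of type XI comes from Col2a1, the cartilage collagen, which spanned 0.934 to 40.6 FPKM in NC and 16.2 to 171 FPKM in 0 h p.r. (log2 fold change 2.75, limma adjusted p = 0.161).

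Col27a1, whose collagen is made by growing cartilage, had the highest positive log2 fold change of the members without passing the test. It read 3.14, 1.596, 4.20 and 3.62 FPKM in NC and 3.28, 7.00, 4.82 and 5.78 FPKM in 0 h p.r. Of the running libraries 3 were above all controls, and replicate 1 lay among them. The log2 fold change was 0.67 ± 0.29 (SE), with an unadjusted limma p of 0.0455 and an adjusted p of 0.212, and the exact permutation test gave p = 0.0857. Summed cartilage markers were 11.98 to 100 FPKM in NC and 107 to 413 FPKM in 0 h p.r., with 8 of 9 higher in 0 h p.r. and 1, Col10a1, at 0 in a control library. Summed bone markers were 15.6 to 64.1 FPKM among controls and 58.4 to 200 FPKM after running, with 9 of 9 higher in 0 h p.r., and Bglap, Sp7 and Sost were at 0 in at least 1 control library. The part of either tissue in the Col27a1 values was not tested. With single libraries left out the log2 fold change of Col27a1 ranged from 0.43 (without NC replicate 2) to 0.85 (without 0 h p.r. replicate 1, where the groups did not overlap), with limma adjusted p from 0.143 to 0.430. Col24a1, a gene known from developing bone, read 1.72, 0.473, 2.05 and 0.861 FPKM in NC and 0.815, 1.40, 1.13 and 0.777 FPKM in 0 h p.r. (log2 fold change -0.13 ± 0.31 SE, limma adjusted p = 0.863). It rested on 19 to 124 reads a library, against at least 88 for Col27a1 and at least 546 for each of the other 8.

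**Figure D3:**
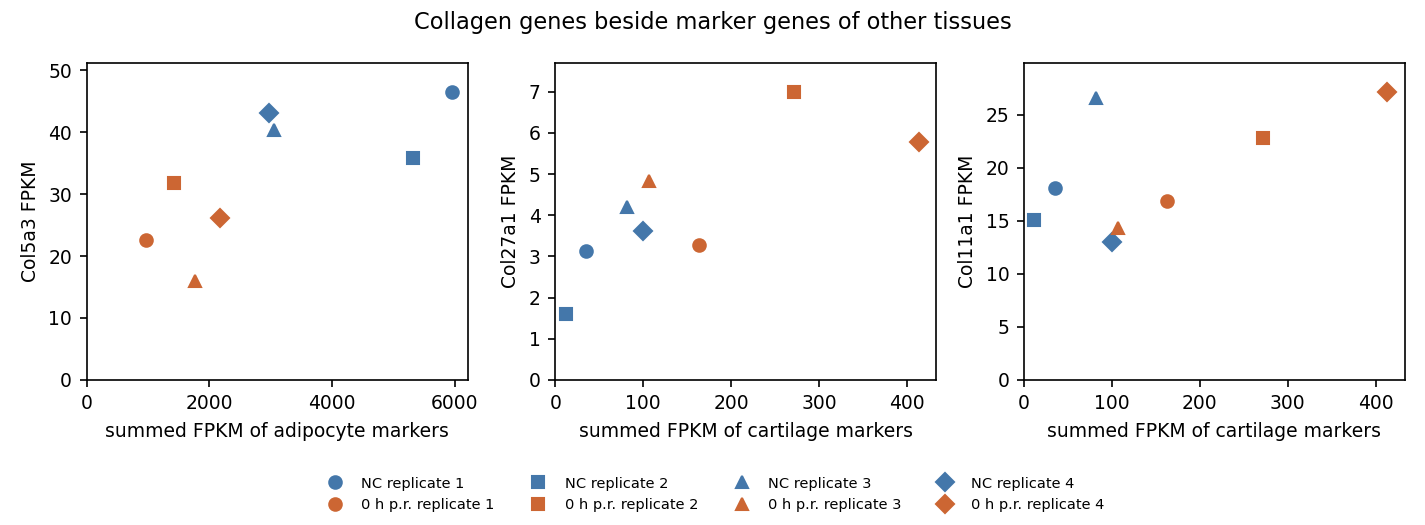
Col5a3, Col27a1 and Col11a1 FPKM (vertical axes) against the summed FPKM of adipocyte or cartilage markers (horizontal axes), one point per library. The adipocyte sums (2973 to 5960 FPKM in NC, 974 to 2169 FPKM in 0 h p.r.) and cartilage sums (11.98 to 100 and 107 to 413 FPKM) separate the groups, while Col27a1 and Col11a1 overlap between them.

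Ratios within a library compare chains that share a trimer or a fibril and hardly depend on the scaling between libraries. Type I collagen holds 2 alpha1 chains for each alpha2 chain. Col1a1 per Col1a2 was 3.32, 3.38, 3.06 and 3.57 in NC and 2.20, 2.99, 2.75 and 5.51 in 0 h p.r., with replicate 4 of the running libraries above all controls and the other 3 below them. The log2 ratio of Col1a2 to Col1a1 differed by 0.075 (0 h p.r. minus NC) with all libraries, and by 0.34 without that replicate (exact adjusted p = 0.229), where the groups did not overlap. It had an SD of 0.092 among controls and 0.57 among running libraries, a difference in spread that was not tested. Col1a1 per Col3a1 was 3.02, 2.22, 3.34 and 1.55 in NC and 3.10, 2.72, 1.84 and 2.35 in 0 h p.r. Col5a2 per Col5a1 stayed within 1.33 to 1.96 in NC and 1.34 to 1.51 in 0 h p.r.

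Of the 8 ratios listed for testing 0 passed, each with an adjusted p of 0.971 by the exact permutation test. The smallest p that this test can give with 4 against 4 libraries is 0.0286. A single ratio at that value could not pass after adjustment over 8 ratios. The lowest unadjusted exact p was 0.171, for Col27a1 to Col1a1 (log2 difference 0.62). That difference was 0.41 to 0.89 with single libraries left out. It was highest without NC replicate 4 (exact adjusted p = 0.229), where the groups did not overlap. The ratios of Col5a3 to its partners were added after the values had been seen. Col5a1 per Col5a3 was 1.18, 0.951, 1.79 and 1.58 in NC and 2.27, 2.27, 3.07 and 3.82 in 0 h p.r., without overlap. The log2 ratio of Col5a3 to Col5a1 differed by -1.04 (0 h p.r. minus NC) and that to Col5a2 by -0.92, each with an exact permutation p of 0.0286 and 0.143 after adjustment over all 10 ratios.

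**Figure D4:**
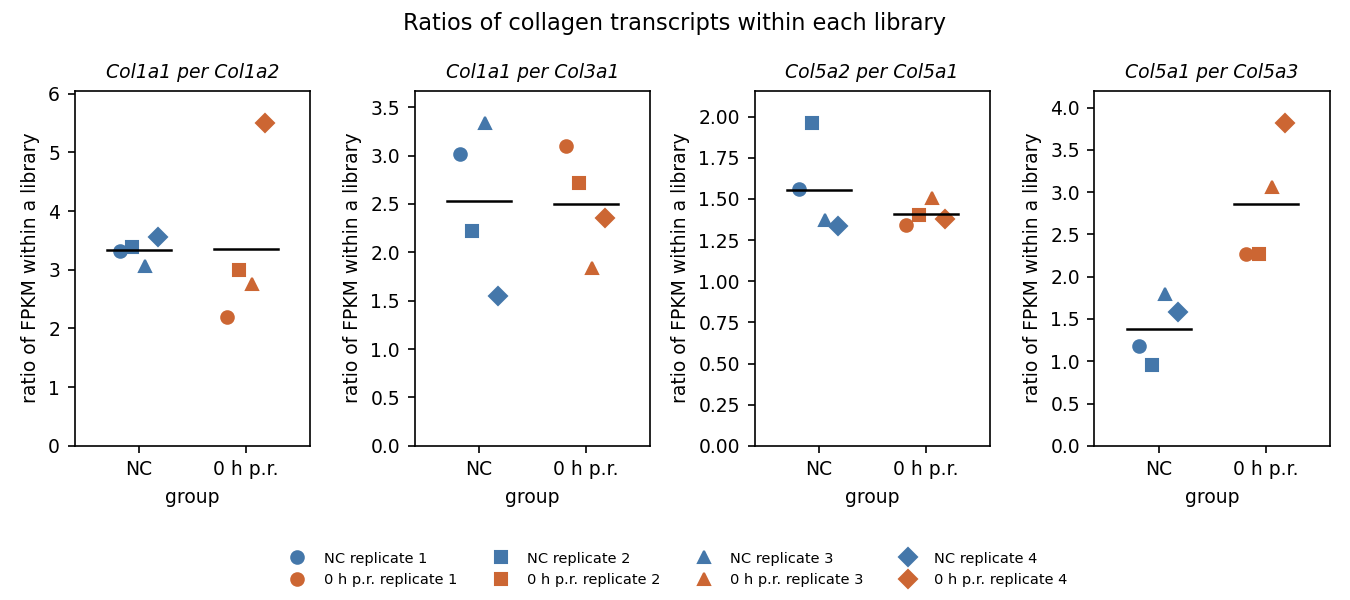
Ratios of FPKM within each library (vertical axes from 0) for Col1a1 per Col1a2, Col1a1 per Col3a1, Col5a2 per Col5a1 and Col5a1 per Col5a3, with a line at each group's mean. Groups overlap in the first 3 panels, and in the last the NC libraries (0.951 to 1.79) lie under the 0 h p.r. libraries (2.27 to 3.82).

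Across the 8 libraries some chains varied together, partners in a trimer or not. Over all 45 pairs of the 10 genes, as a description, Pearson's r of log2(FPKM + 0.5) was highest for Col1a1 with Col11a2 (0.962), Col3a1 with Col5a2 (0.953) and Col3a1 with Col5a1 (0.940). These 3 pairs are not trimer partners and were not among the 6 tested. Of the tested pairs Col5a1 and Col5a2, partners in the type V trimer, were closest, with Pearson's r = 0.939 (exact permutation p = 0.00062, 0.00372 adjusted over 6 pairs) and Spearman's rho = 0.952 (exact p = 0.00114, adjusted 0.00685). Without the 2 libraries farthest from the Col5a1 median r was 0.931, and with group means subtracted it was 0.941. This pair passed the threshold with any single library left out.

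Col1a1 and Col11a1, from the main collagen and a minor one, had r = 0.872 (exact permutation p = 0.0099, adjusted 0.0297) and rho = 0.905 (exact p = 0.00456, adjusted 0.0137), with r = 0.776 without the 2 farthest libraries. The adjusted p was 0.0702 without NC replicate 3 and 0.0530 without NC replicate 4. The type XI partners Col11a1 and Col11a2 had r = 0.826 (exact p = 0.018, adjusted 0.0361) and rho = 0.786 (exact p = 0.0279, adjusted 0.0419). That call held without NC replicate 1 or without 0 h p.r. replicate 4, and was lost when any other single library was left out (exact adjusted p up to 0.108). With the 2 farthest libraries left out, r was 0.912.

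The partners of type I were less close. Col1a1 and Col1a2 had r = 0.774 (exact permutation p = 0.0412, adjusted 0.0618) and rho = 0.476 (exact p = 0.243, adjusted 0.243), with r = 0.630 without the 2 farthest libraries. Without 0 h p.r. replicate 4, the library with 5.51 Col1a1 per Col1a2, r was 0.926 (exact adjusted p = 0.0161). Col1a1 and Col3a1 had r = 0.610 (exact p = 0.113, adjusted 0.136), while their rho of 0.786 passed (exact p = 0.0279, adjusted 0.0419), and r was 0.706 without the 2 farthest libraries. Col1a1 and Col5a1 had r = 0.490 (exact p = 0.214, adjusted 0.214) and rho = 0.738 (exact p = 0.0458, adjusted 0.055), with r = 0.756 without the 2 farthest. All genes of a library share that library's scaling, and the FPKM sums differed between libraries (554130 to 900138). With an equal FPKM total the r of these 3 pairs was 0.822, 0.767 and 0.730 (exact adjusted p = 0.0301, 0.0353 and 0.0367). The r of the other 3 tested pairs rose too. It was 0.977 for Col5a1 and Col5a2, 0.899 for Col11a1 and Col11a2 and 0.921 for Col1a1 and Col11a1. That setting multiplies all genes of a library by a common factor, and its part in the higher r was not tested.

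**Figure D5:**
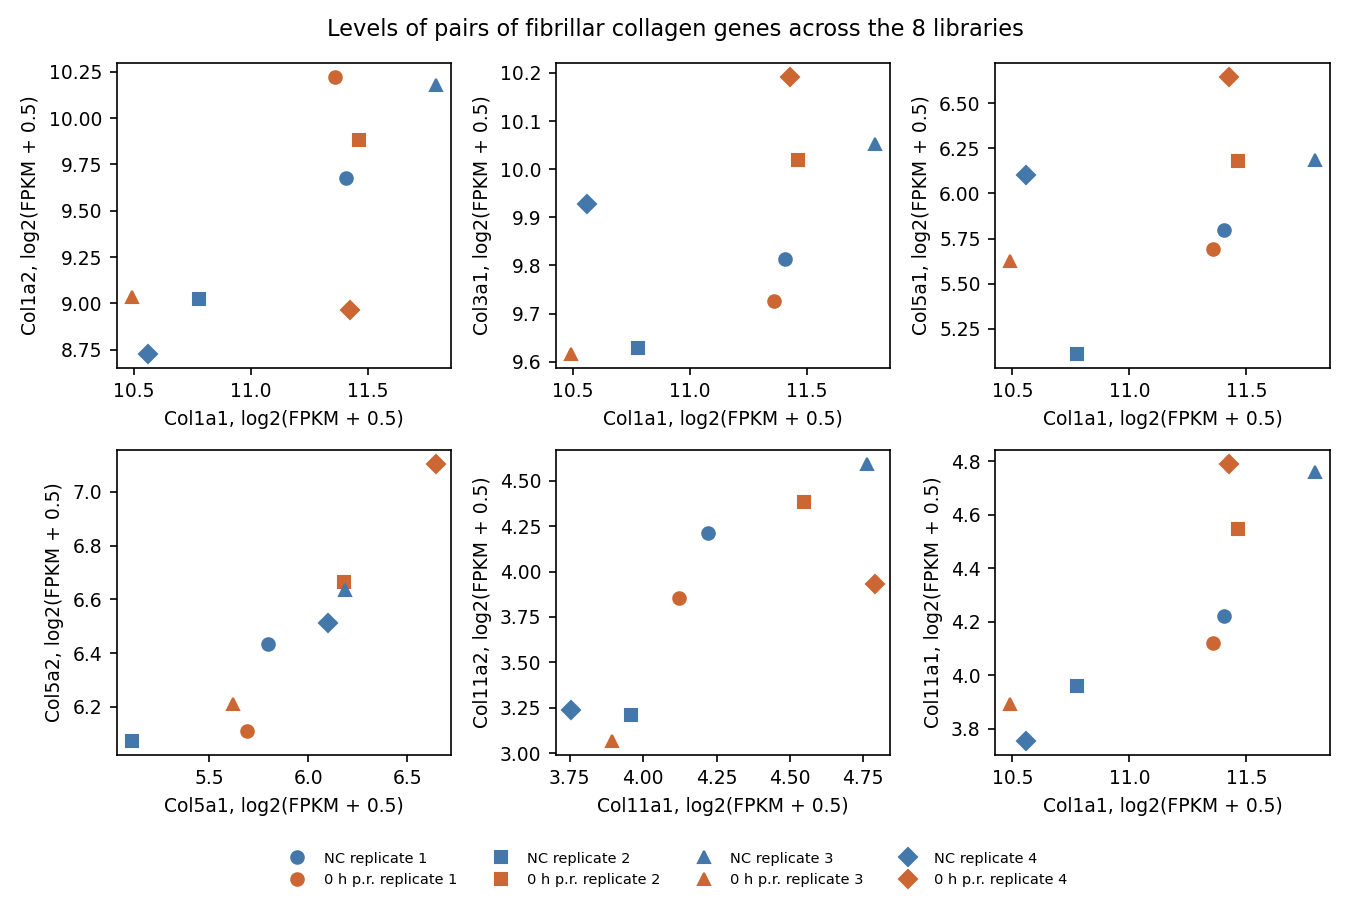
Levels of 6 pairs of fibrillar collagen genes as log2(FPKM + 0.5) on both axes, one point per library (4 NC, 4 0 h p.r.). Col5a1 and Col5a2 lie closest to a line among these 6 pairs (r = 0.939 on log2 values), and the 0 h p.r. replicate 4 point stands off in the panel of Col1a1 and Col1a2 (2750 and 499 FPKM).

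Genes whose pattern was most like that of a member, by Pearson's r of log2(FPKM + 0.5) over the 8 libraries among 13853 other tested genes, are given as a description. They were Jup (0.915), Ankrd34a (0.912) and Slc10a5 (0.911) for Col1a1. For Col5a1 they were Cdr2l (0.982), Atat1 (0.972) and Ntng1 (0.970), and for Col11a1 they were Cybrd1 (0.965), Tmem8b (0.936) and Bmpr1b (0.935).

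The machinery that makes procollagen was read from lists of known genes. Of 18 genes that modify and fold the chains, all tested, 0 passed both thresholds, with a median log2 fold change of 0.05. Plod2, a lysyl hydroxylase that prepares chains for crosslinks, averaged 36.6 ± 6.34 FPKM in controls and 72.5 ± 37.4 FPKM after running (SD, log2 fold change 0.87, limma adjusted p = 0.127). P4ha3, a prolyl 4-hydroxylase subunit, gave 0.82 (limma adjusted p = 0.146) and Colgalt2, which adds galactose to hydroxylysine, 0.87 (limma adjusted p = 0.306). Of 10 secretion genes 9 were tested and 0 passed, with a median of 0.11. The 3 with the largest log2 fold change were Sar1b, a coat GTPase, at 0.85 (limma adjusted p = 0.349), the transcription factor Creb3l1 at 0.21 and the ubiquitin ligase adaptor Klhl12 at 0.19.

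Of 13 genes that trim propeptides or crosslink fibrils, 10 were tested and 0 passed, with a median of 0.012. Lox, the lysyl oxidase that starts crosslinking, was at 43.2 ± 9.48 FPKM in NC and 82.6 ± 33.4 FPKM in 0 h p.r. without overlap (SD, log2 fold change 0.88, limma adjusted p = 0.0987). Loxl3, a related oxidase, gave 0.29, and Tll1, a procollagen C-proteinase, -0.16. Of 18 fibril partners 16 were tested and 1 passed. That was Postn, periostin, a matrix protein that binds collagen and aids crosslinking, which fell from 77.7 ± 16.1 to 32.0 ± 9.49 FPKM (SD, log2 fold change -1.28, limma adjusted p = 0.0162). The median of the list was 0.11, and over all tested genes 0.894% passed both thresholds downwards. Fibronectin (Fn1), on which collagen is laid down, gave 1.01 (limma adjusted p = 0.265) and Prelp, a small leucine-rich proteoglycan, 0.76 (limma adjusted p = 0.196).

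Of 9 genes that break collagen down 5 were tested (Mmp2, Mmp14, Ctsk, Mrc2 and Fap) and 0 passed, with a median of -0.03. The secreted collagenases were not among them. Mmp13 was at 0 to 0.445 FPKM in NC and 0.116 to 1.89 FPKM in 0 h p.r. It was too low for the filter, as was the gelatinase Mmp9. Mmp1 and Mmp8 were not found by name among the 15590 genes. Fap, a serine protease of activated fibroblasts, gave -0.38, the gelatinase Mmp2 -0.10 and the collagen uptake receptor Mrc2 -0.03. Of 7 receptors, all tested, 0 passed, with a median of 0.15. Itga10, the integrin alpha10 chain known from cartilage, gave 1.26 without overlap (limma adjusted p = 0.0977), Itga2 gave 0.39, and the collagen-binding kinase Ddr1 gave -0.31.

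Of 17 regulators of collagen transcription 16 were tested and 3 passed, all higher in 0 h p.r., beside 1.8% of all tested genes, with a median of 0.20. Cebpb, a factor of the acute response, rose from 55.7 ± 5.02 to 166 ± 10.7 FPKM (SD, log2 fold change 1.57, limma adjusted p = 0.000299). Egr1, an early growth response factor known to act on tendon collagen genes, rose from 15.8 ± 6.71 to 84.2 ± 24.8 FPKM (SD, 2.44, limma adjusted p = 0.00486). Smad3, which carries the TGF-beta signal to the nucleus, rose from 13.1 ± 2.22 to 28.3 ± 2.31 FPKM (SD, 1.09, limma adjusted p = 0.00427). Egr2 was at 1.95 ± 0.59 and 5.02 ± 2.04 FPKM (SD, 1.12, limma adjusted p = 0.0563).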

How the data were processed

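Poly(A) RNA of 8 Achilles tendon libraries, 4 NC and 4 0 h p.r., had been made into stranded libraries and sequenced by the authors, who used HISAT2 2.1.0 on Rnor_6.0 and featureCounts 1.6.3 (and DESeq2 1.30.1 for their own test). The authors deposited FPKM per gene and library, which are scaled for gene length and library total. The 3 columns of the authors' own comparison (log2 fold change and p-values) were not used.

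Values were taken as log2(FPKM + 0.5), so that fold changes of low genes are understated. Genes with at least 0.5 FPKM in at least 4 libraries were tested (13863 of 15590, all 10 collagens among them) with limma 3.58.1 in R 4.3.3 (trended empirical Bayes, two-sided, Benjamini-Hochberg over all tested genes). Both thresholds together, an adjusted p under 0.05 and a fold of at least 2, called 250 genes higher and 124 lower. Single values were tested by exact permutation over the 70 assignments of the libraries, two-sided, in Python 3.11.15 with NumPy 2.4.6. Ranks for Spearman's rho came from SciPy 1.17.1. Whole reads were recovered from the FPKM steps for 15590 of 15590 genes (tolerance 0.002 reads), and served for depth and for voom only. Depth behind the collagens ran from 19 to 124 reads a library for Col24a1 to 101326 to 302956 for Col1a1, and how much of the spread came from counting was not tested. The limma step was tested on simulated data of these 2 groups. There 95.9% of 194 tested genes with a 4-fold change were called among 13909 genes, and 4.62% of calls were unchanged genes. The same spread setting was used for every gene and smaller changes were not simulated. These shares therefore do not measure how well a change of the 10 collagens would be seen.

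The 10 genes and the lists were chosen with earlier results of these data known. Genes named from a list are those past both thresholds and the 3 with the largest absolute log2 fold change. The 3 most alike genes are named for Col1a1, Col5a1 and Col11a1, and the defining markers of a tissue beside a result. The alternatives were other pseudocounts, filters, scalings, weights, a replicate block, voom, other thresholds and leaving out libraries. The ratios of Col5a3 and a fit without NC replicate 2 and 0 h p.r. replicate 1 were added after the data had been seen. Promoter sequences came from a RefSeq table of GRCr8, a build other than that of the reads, and no coordinates were compared between the builds.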

Additional observations from a re-analysis of the deposited data

Results flagged for a closer look

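In 3 of 40 groups of 4 values, a single library stood apart from the rest by Dixon's criterion. Chance alone gives this in about 1 of 20 groups. Col1a1 in 0 h p.r. replicate 3 was 1440 FPKM, the lowest of its group (gap over range 0.892). The log2 ratio of Col5a1 to Col1a1 was -4.46 in NC replicate 4, the highest of the controls (0.948). The log2 ratio of Col27a1 to Col1a1 was -8.52 in NC replicate 4, again the highest (0.858).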

How the results depend on the processing

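Of 431 recomputed values under other settings, 368 kept their direction and side of the threshold. The adjusted p of Col5a3 was over 0.05 with a pseudocount of 0.1 (log2 fold change -0.82, limma adjusted p = 0.0504), without the filter (-0.81, 0.0522), at an equal FPKM total (-0.81, 0.269), against a fold of 1.5 (-0.81, adjusted p = 1.00) and without NC replicate 2 and 0 h p.r. replicate 1 together (-0.86, 0.107). With single libraries left out it ranged from -0.95 to -0.63. Of the members 1 passed at any fold. The groups of 0 members lay apart at an equal FPKM total and of 2 with both those libraries left out. With single libraries left out they lay apart in 1 to 2 members. Over all 13863 tested genes the groups lay apart in 2166, and in 1127 at an equal FPKM total. That count was 4269 with both those libraries left out and 2413 to 3615 with single libraries left out. The cause of these shifts was not tested.

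Some fold changes near 0 changed sign. Col1a1 was -0.092 with array weights and -0.13 without the 2 libraries together, Col1a2 -0.23 without them, Col3a1 -0.059 with quantile scaling and -0.041 with array weights, and Col5a2 -0.015 and -0.010 under the same 2 settings. With single libraries left out Col1a1 ranged from -0.14 to 0.28, Col1a2 from -0.11 to 0.39, Col3a1 from -0.069 to 0.12, Col5a2 from -0.085 to 0.25, Col11a2 from -0.21 to 0.25, Col5a1 from 0.0078 (without NC replicate 2) to 0.37, Col11a1 from 0.013 to 0.36 and Col24a1 from -0.39 to 0.078. The log2 ratio differences ranged from -0.31 to 0.085 for Col11a1 to Col5a1, -0.10 to 0.34 for Col1a2 to Col1a1, -0.17 to 0.20 for Col3a1 to Col1a1 and -0.087 to 0.28 for Col5a2 to Col1a1. That of Col5a1 to Col1a1 ranged from 0.063 to 0.48 and that of Col27a1 to Col1a1 from 0.41 to 0.89. At an equal FPKM total r was higher for all 6 tested pairs. Col1a1 with Col1a2, Col3a1 and Col5a1 passed there, at 0.822, 0.767 and 0.730. With single libraries left out r was 0.760 to 0.931 for Col11a1 and Col11a2 and 0.824 to 0.916 for Col1a1 and Col11a1. It was 0.696 to 0.926 for Col1a1 and Col1a2. A filter at a mean of 2 FPKM left Col24a1 untested.

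Libraries of the same replicate number did not deviate together (r from -0.141 to 0.0717, with 0 of 8 libraries closest to their own number), so that the numbers do not pair the libraries. With a replicate block the Col5a3 log2 fold change was -0.81 (adjusted p = 0.113). The count of called genes was 374, 212 with the block, 171 at an equal FPKM total (133 higher and 38 lower, against 250 and 124), 60 against a fold of 1.5 and 793 at any fold. With single libraries left out it was 195 (without 0 h p.r. replicate 2) to 516 (without 0 h p.r. replicate 4). The count at any fold was 178 at an equal FPKM total and 251 to 1178 with the same libraries left out. Of the genes at any fold 309 were lower, 38 with the block and 39 at an equal FPKM total.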
